A study of Xenopus tropicalis with 12 samples.

Results

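The completion of metamorphosis was compared with the tadpole before it in the middle brain of the western clawed frog, Xenopus tropicalis. The 3 RNA-seq libraries of Nieuwkoop-Faber stage 66 (NF66), when the animal is a juvenile frog, were set against the 3 libraries of stage 50 (NF50), a premetamorphic tadpole, which makes 6 of the 12 libraries of the series. Libraries were taken by their stage label, and each gene model entered once. The other 6 libraries came from prometamorphosis (NF56) and metamorphic climax (NF62) and are given beside these where a gene's course between the end stages helps.

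Both groups were wild-type animals of a supplier's stock, the labels name no treatment, and rearing was described in the same words for all libraries, with a plankton food for tadpoles only. The microdissected tissue held the thalamus, hypothalamus and preoptic area, and total RNA was sequenced. The design text calls the 3 libraries of a stage biological replicates, but the labels do not say how many animals, of what sex or age in days, lie behind a library, so the p-values measure the spread between these libraries. Since the samples are whole tissue, fewer cells of a type and less RNA per cell cannot be told apart in anything that follows.

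Metamorphosis is driven by thyroid hormone. Plasma hormone is low in the premetamorphic tadpole, reaches its peak at climax and is low again by the end of tail resorption. The hormone enters cells through membrane transporters, is activated or inactivated by deiodinases, and binds nuclear receptors that work as heterodimers with retinoid X receptors. The receptor gene thrb and the genes klf9, thibz and dio3 are well-known direct targets in Xenopus. The preoptic area and hypothalamus hold the neurosecretory cells that control the pituitary, and the cells lining the brain ventricle are the radial glia that divide to give neurons and glia.

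Total expected counts were 20934082, 25482414 and 21997851 in the NF50 libraries (replicates 1, 3 and 4, as numbered in the labels) and 21426836, 19732166 and 31029733 in the NF66 libraries (replicates 1, 2 and 3). Expression is given as CPM (counts-per-million of the library size, adjusted by TMM scaling factors), always in that replicate order. Among the 6 libraries the first principal component held 56.2% of the variance and separated the stages, with NF50 between -58.2 and -38.9 and NF66 between 41.1 and 62.1. The second held 24.9% and separated libraries of the same stage: NF50 replicate 3 (-40.3) and NF66 replicate 3 (-44.7) lay at one end and NF66 replicate 2 (51) at the other. Neuronal genes were high in every library, and markers of the labelled regions were present. The hypothalamic gene otp had 218, 163 and 178 CPM at NF50 and 228, 130.3 and 156 CPM at NF66. The thalamic gene tcf7l2 had 637, 586 and 636 CPM at NF50 and 568, 616 and 473 CPM at NF66. The hypothalamic gene sim1 was near the limit of detection in all 6 libraries.

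Of 19584 gene models tested, 3507 (17.9%) were higher at NF66 and 3689 (18.8%) were lower, at an adjusted p below 0.05 in edgeR's quasi-likelihood test. Changes of at least 2-fold were found in 745 models (3.80%) that were higher and 1193 (6.09%) that were lower. Together the 2 directions made up 36.7% of the models. These shares over all models are the background for the counts given for each gene list below. Changes of at least 8-fold were fewer and mostly downward, with 36 models higher and 139 lower. Of those 36 models only 25.0% carried a gene name, against 65.5% of those 139 and 58.9% of all models tested, so most of the largest rises cannot be named here. Against NF50, 14.5% of the models had passed in either direction at NF56 and 35% at NF62. All 3 NF66 libraries lay above all 3 NF50 libraries in 4401 models (22.5%) and below them in 4710 (24.1%).

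A fall in these values is relative to the other genes of the same library. Where the deposited TPM values were compared with no scaling between libraries, the median of all models moved from 0.02 to 0.29 on the log2 scale, and 3597 models were higher and 969 lower. The count on the TPM scale is therefore given beside each group of genes that fell. Among genes named singly below, the falls of mki67, slc7a8, cdh5 and mvd and the rises of nfia, nfib and neurod2 were not called on it, nor were others marked at their values.

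**Figure D1:**
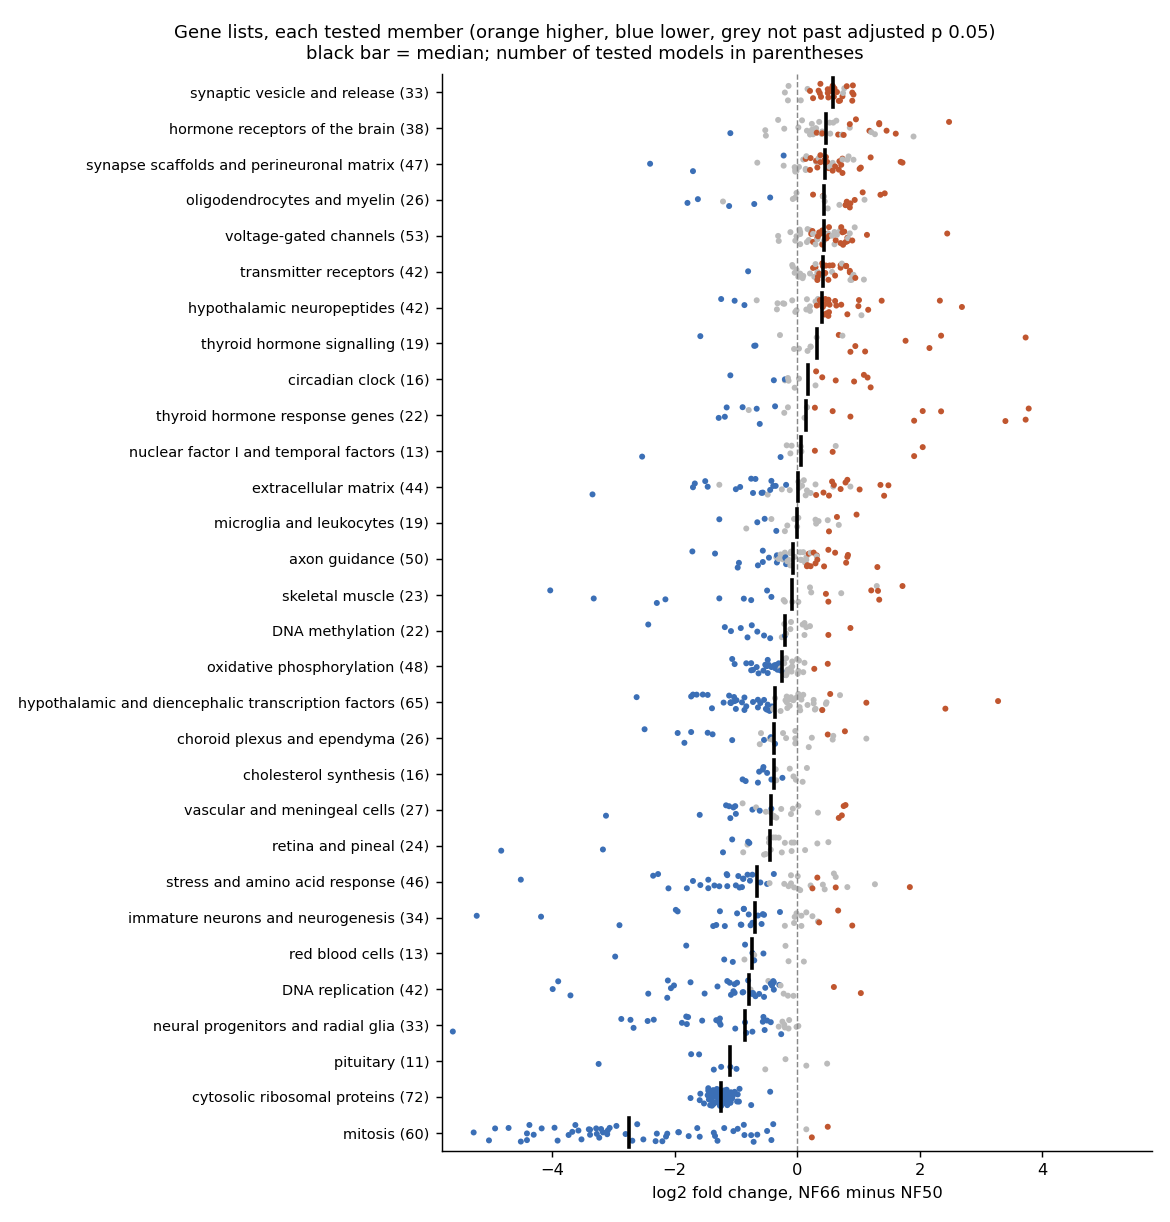
Log2 fold change, NF66 minus NF50, of each tested member of the 30 gene lists (points), with the median of each list as a black bar and the number of tested models in parentheses. Mitosis lies lowest, with a median of -2.75, and synaptic vesicle and release highest, with a median of 0.58.

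Thyroid hormone target genes were among the 12 largest named rises. At NF66 thibz was 13.7-fold, dio3 13.3-fold, klf9 10.5-fold and thrb 5.09-fold above NF50, and in each the NF62 mean was higher still. The list for hormone signalling (transporters, deiodinases, receptors and their cofactors) had 19 tested models, of which 8 rose and 3 fell; its median log2 fold change was 0.32. Of 22 models of a list of genes that respond to the hormone in tadpole tissues, 9 rose and 7 fell, with a median of 0.14. The shares called in the signalling and response lists were 57.9% and 72.7%, beside 36.7% of all models.

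The gene for thyroid hormone receptor beta, thrb, had 9.14, 11.2 and 8.75 CPM at NF50 and 47.9, 41.8 and 58.7 CPM at NF66 (log2 fold change 2.35 ± 0.15, adjusted p = 1.3e-06). Every NF66 library was above every NF50 library, and the means at the stages between were 18.3 ± 1.15 (SD, n = 3) at NF56 and 75.8 ± 11 (SD, n = 3) at NF62. A model matched to the receptor gene thra only through its RefSeq symbol was close to 1 CPM or below in all 6 libraries. It did not pass the test (log2 fold change 0.22 ± 0.39, adjusted p = 0.7). Whether this is the main thra model was not tested, so its level need not be that of the gene.

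The gene dio3 encodes the deiodinase that inactivates the hormone, and it had 3.03, 3.12 and 2.05 CPM at NF50 and 31.7, 33 and 44.6 CPM at NF66 (log2 fold change 3.73 ± 0.18, adjusted p = 1.8e-07). It was 3.36 ± 0.328 CPM (SD, n = 3) at NF56 and 58.6 ± 2.17 CPM (SD, n = 3) at NF62, so its rise came after NF56. Krüppel-like factor 9, klf9, had 6.51, 6.74 and 5.08 CPM at NF50 and 61.6, 40.9 and 90.9 CPM at NF66 (log2 fold change 3.40 ± 0.34, adjusted p = 2.0e-05). Its NF66 libraries differed from each other by more than 2-fold.

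The bZIP transcription factor gene thibz showed the steepest course. Its levels were 0.745, 0.078 and 0.782 CPM at NF50 and 7.34, 7.5 and 6.39 CPM at NF66 (log2 fold change 3.78 ± 0.47, adjusted p = 9.0e-05), after 52.5 ± 5.87 CPM (SD, n = 3) at NF62. A second model named thibz had lower levels and was also highest at NF62. From NF62 to NF66 thibz fell (log2 fold change -2.89 ± 0.36, adjusted p = 0.0039), as did thrb (-0.61 ± 0.14, adjusted p = 0.045) and dio3 (-0.68 ± 0.15, adjusted p = 0.034), while klf9 did not pass (-1.07 ± 0.30, adjusted p = 0.084). In that contrast 620 of the 19584 models (3.17%) passed the threshold in either direction. The differences in course between these genes were not tested.

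Among the transporters, slco4a1 rose from 4.02, 3.43 and 3.37 to 13.6, 13.8 and 9.71 CPM (log2 fold change 1.77 ± 0.18, adjusted p = 2.5e-05). All NF66 libraries lay above all NF50 libraries.

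The amino acid and hormone transporter gene slc7a5 went the other way, with 284, 539 and 223 CPM at NF50 and 119.8, 114 and 117 CPM at NF66 (log2 fold change -1.58 ± 0.25, adjusted p = 0.00048). NF50 replicate 3 was far above the other NF50 libraries, yet both of those were also above every NF66 library. The related slc7a8 fell from 127, 140.1 and 135 to 76.5, 88.8 and 85.6 CPM (log2 fold change -0.68 ± 0.06, adjusted p = 9.9e-06). The gene crym, for a cytosolic protein that binds the hormone, rose (log2 fold change 0.68 ± 0.13, adjusted p = 0.002).

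**Figure D2:**
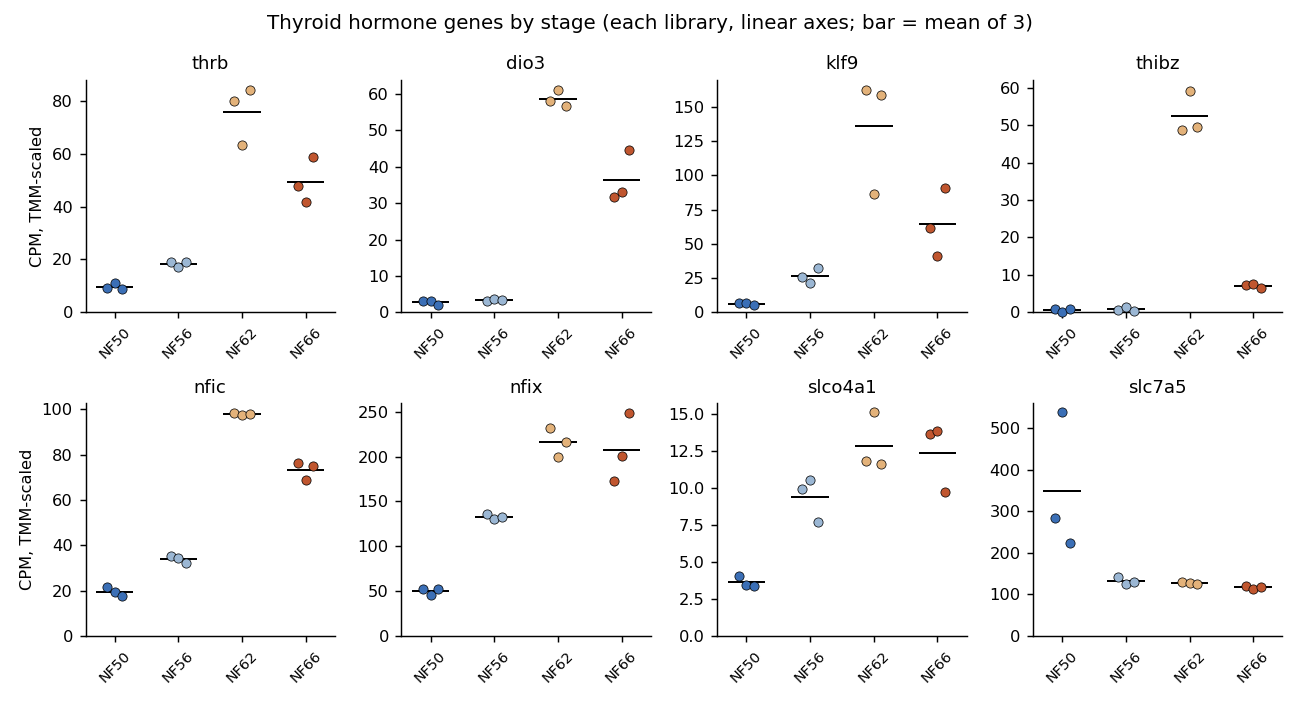
CPM of 8 thyroid hormone genes in every library of the 4 stages (points; linear axes from 0), with the mean of 3 libraries as a bar. In thrb, dio3 and thibz all NF66 libraries lie between those of NF62 and NF50, in klf9 the highest NF66 library passes the lowest of NF62, and slc7a5 is highest at NF50.

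The nuclear factor I genes encode transcription factors that act late in neural development and in gliogenesis, and all 4 rose. The change was largest in nfix, with 51.9, 45.8 and 52.5 CPM at NF50 and 173, 201 and 249 CPM at NF66 (log2 fold change 2.05 ± 0.12, adjusted p = 5.6e-07). In nfic the levels were 21.5, 19.5 and 17.7 CPM at NF50 and 76.1, 68.8 and 75.1 CPM at NF66 (log2 fold change 1.91 ± 0.08, adjusted p = 6.3e-08). The groups did not overlap, and nfic was among the 6 named genes with the lowest p of those that rose. The rises of nfia (log2 fold change 0.29 ± 0.07, adjusted p = 0.006) and nfib (log2 fold change 0.58 ± 0.19, adjusted p = 0.034) were small. Without NF66 replicate 3 nfib had a log2 fold change of 0.30 and was no longer called. Leaving out any 1 NF50 library ended its call as well.

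In the same list of temporal factors, 4 of 13 models rose and 2 fell (median 0.06). Thus 46.2% were called, beside 36.7% of all models, and 15.4% fell, beside 18.8%. The largest change was the fall of igf2bp3, an RNA-binding protein gene of fetal and embryonic tissue in mammals, from 107, 86.2 and 108 to 19.1, 19.1 and 14.2 CPM (log2 fold change -2.53 ± 0.19, adjusted p = 3.0e-06). The chromatin protein gene hmga2 did not pass (log2 fold change -0.11 ± 0.38, adjusted p = 0.86).

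Genes of cell division had the lowest median of the 30 lists. In the mitosis list 57 of 60 tested models fell and 2 rose. The median log2 fold change was -2.75, against 0.02 over all models, of which 18.8% were lower. The 2 that rose were models that carry the names of other genes too (ncapd2/snou85 and atp6v0c/ndufab1/plk1). Without such models all 57 fell, with a median of -2.95. On the TPM scale 49 of the 60 fell.

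The gene for the kinase that drives entry into mitosis, cdk1, had 17.9, 16.5 and 20.6 CPM at NF50 and 0.185, 0.262 and 0.838 CPM at NF66 (log2 fold change -5.28 ± 0.37, adjusted p = 1.8e-06). The spindle checkpoint gene mad2l1 fell from 6.56, 8.77 and 6.79 to 0.277, 0.21 and 0.186 CPM (log2 fold change -5.03 ± 0.28, adjusted p = 4.5e-07). The kinesin gene kif20a fell from 13.7, 14.5 and 19.1 to 0.554, 0.315 and 0.621 CPM (log2 fold change -4.93 ± 0.28, adjusted p = 4.8e-07). In none of these genes did a library of one stage reach the range of the other. The same held for ccna2 (cyclin A2), with 12, 11.6 and 11.3 CPM at NF50 and 0.6, 0.786 and 0.31 CPM at NF66 (log2 fold change -4.41 ± 0.26, adjusted p = 6.1e-07). It held for ckap2, a microtubule-associated protein gene, with 14, 16.3 and 16.7 CPM at NF50 and 0.462, 0.524 and 0.496 CPM at NF66 (log2 fold change -4.97 ± 0.16, adjusted p = 1.8e-08). The spindle protein gene nusap1 fell as well (log2 fold change -4.37 ± 0.14, adjusted p = 2.3e-08).

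Most of this fall was reached by climax. The median of the list against NF50 was -1.32 at NF56 and -2.60 at NF62, and cdk1 had means of 5.59 ± 0.406 and 1.59 ± 0.189 CPM (SD, n = 3 each) at those stages. The fall of cdk1 from NF62 to NF66 passed the threshold too (log2 fold change -1.75 ± 0.38, adjusted p = 0.034). The proliferation marker mki67 moved less than most of the list, from 69.4, 86.9 and 70.0 to 39.5, 39.3 and 36.6 CPM (log2 fold change -0.97 ± 0.12, adjusted p = 7.8e-05). The topoisomerase gene of dividing cells, top2a, was low throughout, with 3.48, 4.21 and 1.81 CPM at NF50 and 0.277, 0.105 and 0.465 CPM at NF66 (log2 fold change -3.38 ± 0.57, adjusted p = 0.00079).

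DNA replication genes fell as well, by less. Of 42 models 34 fell and 2 rose, with a median of -0.78; on the TPM scale 15 fell and 2 rose. The subunit of ribonucleotide reductase rrm2.1, outside the list but among the 12 largest falls, had 17.3, 18.9 and 20.3 CPM at NF50 and 0.0923, 0.472 and 0.0931 CPM at NF66 (log2 fold change -6.53 ± 0.67, adjusted p = 2.4e-05). The histone chaperone gene chaf1b fell from 10.9, 11.1 and 9.87 to 0.692, 0.367 and 0.869 CPM (log2 fold change -3.99 ± 0.28, adjusted p = 1.8e-06). A partner of the maintenance methyltransferase at replicated DNA, uhrf1, fell from 41.8, 38.5 and 45.1 to 8.26, 8.76 and 6.3 CPM (log2 fold change -2.43 ± 0.15, adjusted p = 9.6e-07).

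The MCM genes, which encode the subunits of one helicase complex, did not move together. The gene mcm4 fell from 19.6, 18.9 and 14.9 to 1.06, 1.26 and 1.24 CPM (log2 fold change -3.90 ± 0.19, adjusted p = 2.4e-07). In contrast, mcm2 rose from 159, 151 and 152 to 240.3, 228 and 232 CPM (log2 fold change 0.60 ± 0.05, adjusted p = 4.7e-06). The mcm2 groups did not overlap either, and its rise held in every alternative tried. The models of mcm3, mcm7 and mcm5 (shared with ndufa6) fell, the last not called on the TPM scale, and mcm6, near 1 CPM, rose (log2 fold change 1.04 ± 0.28, adjusted p = 0.014), a call that was lost without NF50 replicate 1 or 4. The sliding clamp gene pcna shares its model with figla, and that model fell from 94.4, 91 and 80.7 to 30.9, 28.5 and 33.6 CPM (log2 fold change -1.51 ± 0.08, adjusted p = 3.0e-07).

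**Figure D3:**
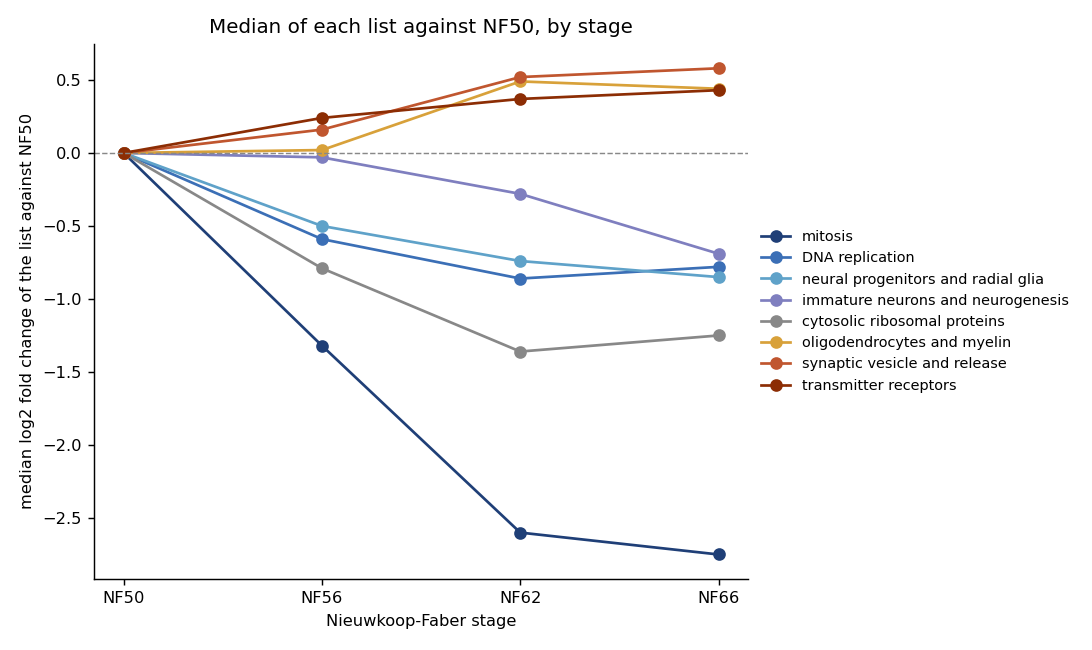
Median log2 fold change against NF50 of 8 gene lists at each stage (stages spaced evenly, not by time; every point shares the NF50 libraries). Mitosis falls to -1.32 at NF56 and -2.75 at NF66, and the immature neuron list is at -0.03 at NF56 and at -0.69 at NF66.

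Radial glia and progenitor genes fell with no member rising. Of 33 tested models 25 fell and 0 rose (median -0.85), and in 28 of them all NF66 libraries lay below all NF50 libraries (24.1% of all models did). On the TPM scale 15 of the 33 fell. The radial glial fatty acid binding protein gene fabp7 had 459, 471 and 454 CPM at NF50 and 63, 57.8 and 67.9 CPM at NF66 (log2 fold change -2.87 ± 0.07, adjusted p = 1.9e-09), a difference far beyond the spread of either stage. The gene of the intermediate filament vimentin, vim, had 370.5, 369 and 385 CPM at NF50 and 75.2, 73.4 and 72.8 CPM at NF66 (log2 fold change -2.34 ± 0.05, adjusted p = 1.3e-09), the lowest p of any named gene that fell.

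Notch signalling keeps progenitors undifferentiated, and a number of its genes fell at several steps, though not every effector gene tested passed. Among ligands, dlc fell from 34.2, 29.9 and 32 to 2.26, 2.67 and 2.3 CPM (log2 fold change -3.73 ± 0.11, adjusted p = 1.8e-08). The ligand gene dll1 fell from 52.2, 51.8 and 56.3 to 13.7, 13.8 and 13.2 CPM (log2 fold change -1.98 ± 0.09, adjusted p = 2.0e-07). The receptor gene notch1 fell from 69.1, 67.8 and 65.7 to 26.7, 25 and 29.3 CPM (log2 fold change -1.32 ± 0.09, adjusted p = 1.8e-06). The effector genes hes5.1 (log2 fold change -2.72 ± 0.13, adjusted p = 1.7e-07) and hes3.3 (log2 fold change -2.67 ± 0.18, adjusted p = 1.4e-06) fell further than notch1 did. The fall of hes1 was smaller (log2 fold change -0.56 ± 0.11, adjusted p = 0.0016) and was not called on the TPM scale.

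The progenitor transcription factor genes differed in extent. The gene sox3 fell from 89.9, 89 and 78.3 to 24.8, 21.5 and 23.3 CPM (log2 fold change -1.88 ± 0.07, adjusted p = 5.7e-08). The fall of sox2 was from 140.5, 128 and 109.6 to 92.1, 79.2 and 90.9 CPM (log2 fold change -0.53 ± 0.09, adjusted p = 0.00068), and it was not called on the TPM scale. Neither sox9 (log2 fold change -0.24 ± 0.10, adjusted p = 0.088) nor the glial glutamate transporter gene slc1a3 (log2 fold change -0.01 ± 0.09, adjusted p = 0.97) passed. The nuclear lamin gene lmnb1 fell from 94.8, 90.8 and 88.4 to 21.2, 18.7 and 21.1 CPM (log2 fold change -2.17 ± 0.07, adjusted p = 1.8e-08).

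Genes of newborn neurons fell in majority. Of 34 models 22 fell and 3 rose, and 17 of those 22 were already called lower against NF50 at NF62 and 4 at NF56. The list's median was -0.69 at NF66, whereas against NF50 it was -0.03 at NF56 and -0.28 at NF62. On the TPM scale 11 fell and 2 rose. The proneural gene neurog1 had 1.69, 1.99 and 1.66 CPM at NF50 and 0.0923, 0.0524 and 0 CPM at NF66 (log2 fold change -5.23 ± 0.51, adjusted p = 1.7e-05), close to the limit of detection at NF66. The related neurod4 fell from 4.07, 3.9 and 3.81 to 0.739, 0.839 and 1.4 CPM (log2 fold change -1.95 ± 0.36, adjusted p = 0.0013), after 1.05 ± 0.458 CPM (SD, n = 3) at NF62.

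Doublecortin, dcx, a microtubule protein gene of migrating neurons, had 553, 567 and 567 CPM at NF50 and 379, 354 and 425 CPM at NF66 (log2 fold change -0.54 ± 0.07, adjusted p = 9.1e-05). It had been higher at NF56, at 839 ± 36.3 CPM (SD, n = 3), than at either end stage, and its fall at NF66 was not called on the TPM scale. The sox4 model, which also carries a small nuclear RNA name, fell from 316, 348 and 295 to 119, 109.6 and 142 CPM (log2 fold change -1.37 ± 0.11, adjusted p = 5.8e-06). The 3 members that rose were gap43, a growth cone protein gene (log2 fold change 0.36 ± 0.10, adjusted p = 0.017), neurod2 (log2 fold change 0.67 ± 0.23, adjusted p = 0.039) and neurod6 (log2 fold change 0.90 ± 0.30, adjusted p = 0.036). The calls of neurod2 and neurod6 were lost without NF66 replicate 3, with log2 fold changes of 0.35 and 0.49, and also without any 1 NF50 library. That of gap43 was lost without NF50 replicate 3 or NF66 replicate 1.

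In the lists of mature neurons the genes that passed the test nearly all rose. In the synaptic vesicle list 26 of 33 models rose and 0 fell (median 0.58), and in the voltage-gated channel list 26 of 53 rose and 0 fell (median 0.44). Of 42 transmitter receptor models 20 rose and 1 fell (median 0.43), and of 47 models for synaptic scaffolds and perineuronal matrix 25 rose and 3 fell (median 0.45). These stand beside 17.9% of all models higher, and in the channel and receptor lists more members did not pass than rose. The share of all counts taken by the synaptic vesicle list went from between 0.948% and 1.05% at NF50 to between 1.48% and 1.57% at NF66.

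At the vesicle, cplx1 (complexin 1, which clamps and triggers fusion) had 797, 817 and 761 CPM at NF50 and 1540, 1449 and 1512 CPM at NF66 (log2 fold change 0.92 ± 0.05, adjusted p = 3.0e-07). The synapsin genes syn1 (log2 fold change 0.90 ± 0.17, adjusted p = 0.0015), syn2 (log2 fold change 0.81 ± 0.05, adjusted p = 7.7e-07) and syn3 (log2 fold change 0.91 ± 0.13, adjusted p = 0.00025) all rose. The SNARE gene snap25 had 1197, 1212 and 1160 CPM at NF50 and 1882, 1943 and 1774 CPM at NF66 (log2 fold change 0.65 ± 0.06, adjusted p = 6.9e-06). The calcium sensor gene syt1 had 587, 628 and 582 CPM at NF50 and 879, 879.8 and 954 CPM at NF66 (log2 fold change 0.59 ± 0.05, adjusted p = 9.7e-06), with no overlap between the stages.

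Among receptors, the AMPA receptor gene gria4 rose from 75.7, 79.7 and 66.4 to 137, 136 and 154 CPM (log2 fold change 0.95 ± 0.08, adjusted p = 6.0e-06). Its relative gria2 did not pass (log2 fold change 0.09 ± 0.13, adjusted p = 0.63). The metabotropic glutamate receptor gene grm3 rose (log2 fold change 0.86 ± 0.09, adjusted p = 3.3e-05). The obligatory NMDA receptor subunit gene grin1 rose (log2 fold change 0.51 ± 0.10, adjusted p = 0.002), and the subunit gene grin2a did not pass (log2 fold change -0.08 ± 0.30, adjusted p = 0.86). GABA-A receptor genes gabra2 (log2 fold change 0.80 ± 0.09, adjusted p = 3.3e-05) and gabra3 (log2 fold change 0.71 ± 0.07, adjusted p = 1.9e-05) rose. The nicotinic gene chrna5 was the only member of the list that fell, from 19.9, 18.3 and 19.9 to 12.3, 12.3 and 8.78 CPM (log2 fold change -0.80 ± 0.16, adjusted p = 0.0021); it was not called on the TPM scale.

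Among channels, the T-type calcium channel gene cacna1g had 214, 182 and 227 CPM at NF50 and 449.6, 570.0 and 351 CPM at NF66 (log2 fold change 1.14 ± 0.17, adjusted p = 0.00036). The potassium channel genes kcna4 (log2 fold change 0.90 ± 0.08, adjusted p = 6.5e-06) and kcnc4 (log2 fold change 0.82 ± 0.09, adjusted p = 2.5e-05) rose. The sodium channel beta subunit gene scn2b went from 300.3, 325 and 300.2 to 523, 531 and 578 CPM (log2 fold change 0.82 ± 0.05, adjusted p = 9.7e-07). The P/Q-type calcium channel gene cacna1a, which acts in transmitter release, did not pass (log2 fold change -0.20 ± 0.08, adjusted p = 0.085).

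In the scaffold list, camk2a, the synaptic kinase gene, had 305, 347 and 298 CPM at NF50 and 566, 667 and 719 CPM at NF66 (log2 fold change 1.04 ± 0.10, adjusted p = 1.2e-05). The gene of a secreted synaptic organizer, c1ql3, had 20.5, 18.1 and 17.3 CPM at NF50 and 45.4, 56.9 and 81.2 CPM at NF66 (log2 fold change 1.72 ± 0.19, adjusted p = 3.8e-05). The neuronal pentraxin receptor gene nptxr rose from 89.6, 123 and 78.2 to 227, 237 and 472 CPM (log2 fold change 1.69 ± 0.33, adjusted p = 0.002), with NF66 replicate 3 highest. The 3 members that fell included the matrix genes vcan, with 112, 108 and 101 CPM at NF50 and 34.2, 27.2 and 37.5 CPM at NF66 (log2 fold change -1.70 ± 0.11, adjusted p = 1.3e-06), and hapln3 (log2 fold change -2.40 ± 0.21, adjusted p = 6.8e-06). The microtubule gene mapt fell slightly (log2 fold change -0.22 ± 0.06, adjusted p = 0.013), a call that was lost with no scaling factor, and its value on the TPM scale was 0.12.

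The lowest p-values among named genes that rose belonged to genes with little spread inside a stage. The gene slc25a12, for the mitochondrial aspartate and glutamate carrier, had 33.7, 34.5 and 32.9 CPM at NF50 and 91.5, 91.4 and 95.7 CPM at NF66 (log2 fold change 1.46 ± 0.06, adjusted p = 5.2e-08). The calmodulin-dependent kinase gene pnck had 129, 128 and 130.2 CPM at NF50 and 400.1, 437 and 370.4 CPM at NF66 (log2 fold change 1.64 ± 0.07, adjusted p = 6.4e-08). The small GTPase gene diras2 had 80.3, 86.5 and 79.7 CPM at NF50 and 179.7, 178 and 182 CPM at NF66 (log2 fold change 1.13 ± 0.05, adjusted p = 1.0e-07). After nfic, necab1 (log2 fold change 1.01 ± 0.04, adjusted p = 1.1e-07) and vat1l (log2 fold change 1.17 ± 0.05, adjusted p = 1.8e-07) completed the 6 lowest.

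Hypothalamic peptide genes rose more often than they fell. Of 42 models of the list of neuropeptides, their processing enzymes and transmitter synthesis, 24 rose and 3 fell, with a median of 0.41. The largest rise was in avp, the vasotocin gene of the frog, with 25.9, 18.4 and 22.5 CPM at NF50 and 203, 114 and 113 CPM at NF66 (log2 fold change 2.69 ± 0.24, adjusted p = 1.0e-05). The related gene oxt, for mesotocin, had 52.9, 51.8 and 61.1 CPM at NF50 and 209, 124 and 100.1 CPM at NF66 (log2 fold change 1.38 ± 0.22, adjusted p = 0.00045). In both genes every NF66 library was above every NF50 library, and NF66 replicate 1 was the highest.

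The gene for gonadotropin-releasing hormone, gnrh1, was below 1 CPM at NF50 and rose, with 0.745, 0.702 and 0.44 CPM at NF50 and 1.99, 3.67 and 3.91 CPM at NF66 (log2 fold change 2.33 ± 0.31, adjusted p = 0.00014). The opioid precursor gene penk rose from 91.8, 86 and 83.5 to 170.3, 186 and 166 CPM (adjusted p = 1.1e-06). The gene of the peptide PACAP, adcyap1, rose from 434, 386 and 388 to 869, 855 and 712 CPM (log2 fold change 1.01 ± 0.11, adjusted p = 4.6e-05). The appetite peptide gene npy rose slightly (log2 fold change 0.32 ± 0.07, adjusted p = 0.0063). The thyrotropin-releasing hormone gene trh (log2 fold change 0.21 ± 0.09, adjusted p = 0.083) and the somatostatin gene sst (log2 fold change 0.30 ± 0.14, adjusted p = 0.12) did not pass.

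The gene pomc, which is made both in the arcuate region and in the pituitary, fell, with 88.3, 99.4 and 67 CPM at NF50 and 17.3, 37.1 and 53.3 CPM at NF66 (log2 fold change -1.24 ± 0.31, adjusted p = 0.0089). Genes of the pituitary fell with it: of 11 tested models of that list 7 fell and 0 rose (4 fell on the TPM scale). The list took between 0.0184% and 0.0256% of counts at NF50 and between 0.00829% and 0.0126% at NF66. The growth hormone gene, gh1, had 59.8, 51.3 and 28.3 CPM at NF50 and 4.11, 4.82 and 5.71 CPM at NF66 (log2 fold change -3.24 ± 0.30, adjusted p = 1.2e-05). The glycoprotein hormone alpha gene cga fell from 13.7, 11.7 and 9.58 to 2.72, 2.78 and 4.9 CPM (log2 fold change -1.73 ± 0.34, adjusted p = 0.0021). The hormone genes tshb and lhb were at or below 0.5 CPM in every library of both stages, and prl did not pass (log2 fold change 0.15 ± 0.39, adjusted p = 0.81). Neither the part of attached pituitary in the pomc value nor that of hypothalamic cells was tested, and the pomc and cartpt falls (log2 fold change -1.02 ± 0.20, adjusted p = 0.0022) were not called on the TPM scale.

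Receptors and enzymes for hormones in the brain rose in 12 of 38 models and fell in 1, a model that also carries a ribosomal protein name. The median was 0.47, and 25 models did not pass. The share called was 34.2%, beside 36.7% of all models, and the share that rose was 31.6%, beside 17.9%. The mineralocorticoid receptor gene nr3c2 had 10.5, 12.6 and 10.3 CPM at NF50 and 30.6, 31.9 and 39.4 CPM at NF66 (log2 fold change 1.61 ± 0.14, adjusted p = 6.9e-06). The glucocorticoid receptor gene nr3c1 did not pass (log2 fold change 0.26 ± 0.11, adjusted p = 0.082). Aromatase, cyp19a1, which makes estrogen, rose from 11.3, 10.8 and 8.31 to 20.2, 30.9 and 32.7 CPM (log2 fold change 1.46 ± 0.17, adjusted p = 6.9e-05). The estrogen receptor gene esr1 was low at both stages, with 0.0497, 0.273 and 0.196 CPM at NF50 and 0.739, 1.21 and 1.12 CPM at NF66 (log2 fold change 2.48 ± 0.60, adjusted p = 0.0074). The progesterone receptor gene pgr had 0.546, 0.468 and 0.587 CPM at NF50 and 1.2, 1.36 and 1.49 CPM at NF66 (log2 fold change 1.34 ± 0.29, adjusted p = 0.0036). The melanocortin receptor gene mc4r rose from 8, 7.76 and 7.18 to 19.5, 20.2 and 18.6 CPM (log2 fold change 1.34 ± 0.10, adjusted p = 2.3e-06), with no overlap.

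**Figure D4:**
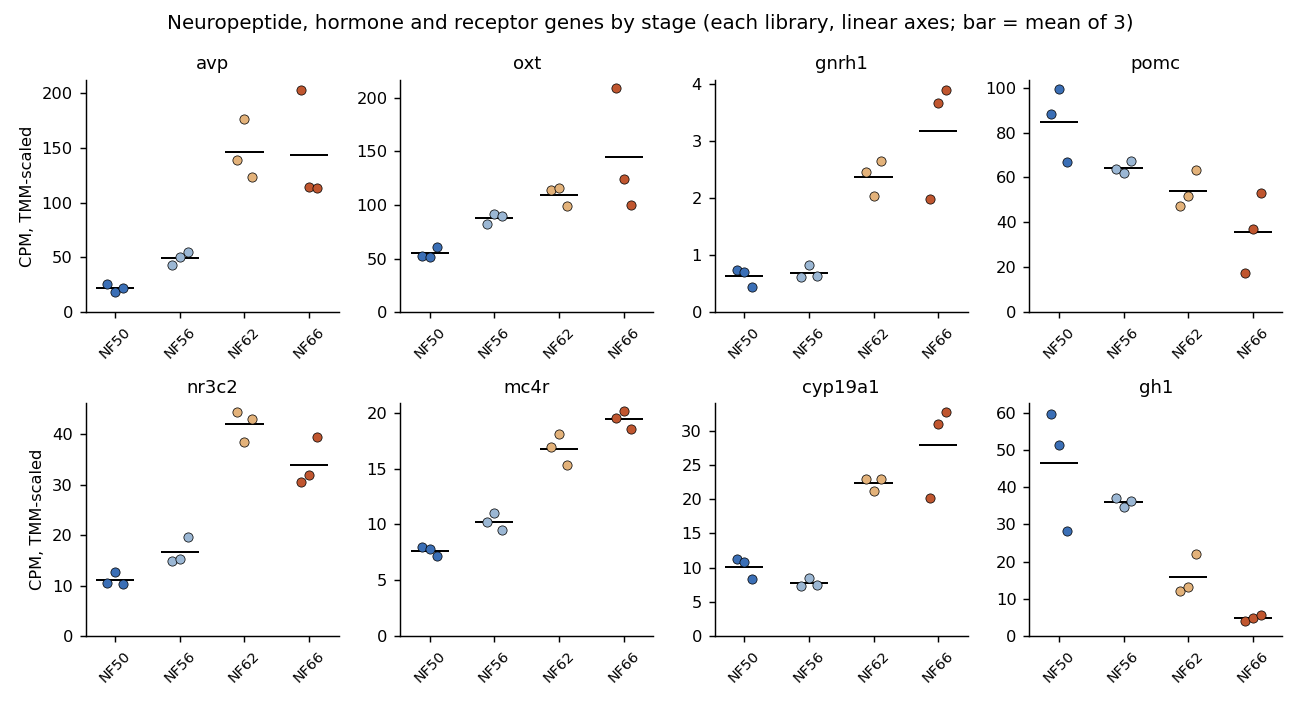
CPM of 8 peptide, hormone and receptor genes in every library of the 4 stages (points; linear axes from 0), with the mean of 3 libraries as a bar. All NF66 libraries exceed all NF50 libraries in avp, oxt, gnrh1, nr3c2, mc4r and cyp19a1, and all lie below them in pomc and gh1.

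Regional transcription factor genes fell more often than they rose, and as many did not pass as fell. Of 65 tested models of the hypothalamic and diencephalic list 30 fell, 5 rose and the median was -0.36, and on the TPM scale 15 fell, 7 rose and the median was -0.05. The head gene otx2 fell from 74.1, 67.8 and 74.3 to 27.2, 25.2 and 26 CPM (log2 fold change -1.46 ± 0.08, adjusted p = 3.2e-07). The homeobox gene lmx1a fell from 7.25, 6.63 and 7.82 to 2.68, 1.68 and 2.17 CPM (log2 fold change -1.73 ± 0.18, adjusted p = 2.5e-05). Among those that did not pass were otp, used above to check the tissue (log2 fold change -0.12 ± 0.17, adjusted p = 0.64), nkx2-1 (log2 fold change -0.27 ± 0.18, adjusted p = 0.27) and lhx9 (log2 fold change -0.06 ± 0.09, adjusted p = 0.68).

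The rises of the list included forebrain genes whose NF66 libraries differed widely from each other. The gene lhx6, of ventral forebrain interneurons, had 2.88, 3.2 and 2.88 CPM at NF50 and 7.76, 10.9 and 29 CPM at NF66 (log2 fold change 2.42 ± 0.60, adjusted p = 0.0086). Its relative lhx8 had 8.59, 5.65 and 6.7 CPM at NF50 and 7.29, 21.3 and 17 CPM at NF66 (log2 fold change 1.13 ± 0.33, adjusted p = 0.02), where NF66 replicate 1 lay within the NF50 range. The lhx8 call was lost without NF50 replicate 3 or 4, or NF66 replicate 2 or 3. Leaving out 1 library at a time gave between 2 and 8 rises in the list.

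Several of the largest rises of all had the order of libraries that lhx6 had at NF66, with replicate 1 lowest and replicate 3 highest. The bombesin receptor gene brs3 had 4.72, 3.98 and 5.47 CPM at NF50 and 19.9, 46.3 and 64.9 CPM at NF66 (log2 fold change 3.22 ± 0.45, adjusted p = 0.0002). For lman1l the levels were 5.51, 4.95 and 7.53 CPM at NF50 and 15.8, 47.7 and 63.5 CPM at NF66 (log2 fold change 2.82 ± 0.58, adjusted p = 0.0029). The tyrosine kinase gene ptk2b had 16.2, 18.2 and 17.1 CPM at NF50 and 61.2, 111 and 127 CPM at NF66 (log2 fold change 2.54 ± 0.26, adjusted p = 2.5e-05). For phyhip they were 25.1, 29.9 and 23 CPM at NF50 and 84.2, 144 and 219.7 CPM at NF66 (log2 fold change 2.52 ± 0.36, adjusted p = 0.00025). None of their NF66 libraries reached down to the NF50 range. Among genes known from the telencephalon and picked after these values were seen, the following did not pass: tbr1 (log2 fold change 0.34 ± 0.19, adjusted p = 0.2), eomes (log2 fold change 0.15 ± 0.27, adjusted p = 0.71), bcl11b (log2 fold change 0.25 ± 0.13, adjusted p = 0.17) and fezf2 (log2 fold change 0.70 ± 0.37, adjusted p = 0.16). The part that a varying amount of telencephalic tissue plays in these rises was not tested.

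**Figure D5:**
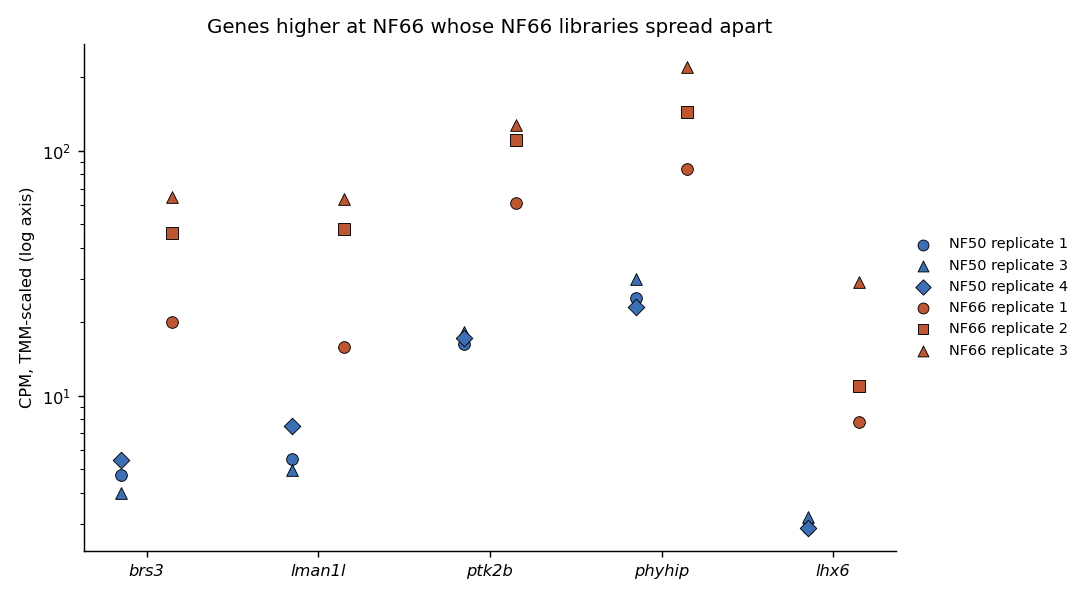
CPM on a log axis of 5 genes in the 3 NF50 and 3 NF66 libraries, with a symbol for each replicate number. All NF66 libraries lie above all NF50 libraries, and among them replicate 1 is lowest and replicate 3 highest in each gene.

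At the other end of the brain, Hox genes, which mark hindbrain and spinal cord and were looked at after the values were seen, were lower in sum at NF66. Of 16 tested Hox models 7 fell, 0 rose and 9 did not pass, beside 18.8% of all models lower. Several models, hoxc5 and hoxc6 among them, were near the limit of detection at both stages. Their summed level was 40.1, 37.3 and 32.2 CPM at NF50 and 12.4, 13.3 and 12.2 CPM at NF66, so every NF66 library was below every NF50 library. The gene hoxa2 fell from 4.47, 4.25 and 3.37 to 1.66, 0.891 and 0.621 CPM (log2 fold change -1.95 ± 0.32, adjusted p = 0.00065), and hoxb2 from 2.93, 2.77 and 2.88 to 0.739, 0.524 and 0.621 CPM (log2 fold change -2.17 ± 0.23, adjusted p = 2.7e-05). Whether the dissected piece reached further back in tadpoles was not tested, and its part in the falls of other regional genes was not tested.

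Myelin genes rose while some other genes of the oligodendrocyte lineage fell. Of 26 models 11 rose (42.3%, beside 17.9% of all models) and 5 fell (19.2%, beside 18.8%), with a median of 0.44. The gene of myelin basic protein, mbp, had 525, 545 and 487 CPM at NF50 and 1235, 998 and 1036 CPM at NF66 (log2 fold change 1.07 ± 0.08, adjusted p = 4.1e-06). The myelin-associated glycoprotein gene mag had 67.9, 76.6 and 62.2 CPM at NF50 and 196, 131 and 229 CPM at NF66 (log2 fold change 1.43 ± 0.21, adjusted p = 0.00029). In both genes the stages did not overlap. The list's median against NF50 was 0.02 at NF56 and 0.49 at NF62.

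The transcription factor gene that drives myelination, myrf (named c11orf9 in the files), rose from 3.82, 4.09 and 4.06 to 7.85, 6.45 and 7.48 CPM (log2 fold change 0.86 ± 0.14, adjusted p = 0.00047). The lineage factor gene sox10 rose as well (log2 fold change 0.79 ± 0.16, adjusted p = 0.0025). The fall of nkx6-2, a homeobox gene of oligodendrocyte development in mammals, was from 11.6, 11.5 and 12.6 to 4.71, 3.15 and 3.72 CPM (log2 fold change -1.62 ± 0.20, adjusted p = 9.4e-05). A marker of newly formed oligodendrocytes in mice, enpp6, fell from 6.06, 5.85 and 5.82 to 1.57, 1.68 and 1.86 CPM (log2 fold change -1.79 ± 0.19, adjusted p = 3.1e-05). Of the progenitor genes pdgfra rose (log2 fold change 0.81 ± 0.19, adjusted p = 0.006), and olig2 did not pass (log2 fold change 0.50 ± 0.54, adjusted p = 0.51). Falls were called in cspg4 (log2 fold change -1.11 ± 0.31, adjusted p = 0.015) and nkx2-2 (log2 fold change -0.70 ± 0.16, adjusted p = 0.0048), neither of them on the TPM scale. The cspg4 call was lost without NF50 replicate 3 or NF66 replicate 1.

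The enzymes of DNA methylation split. Of 22 models 2 rose and 10 fell, with a median of -0.20 that became 0.12 on the TPM scale. The maintenance methyltransferase gene dnmt1 fell from 68.7, 67.4 and 64.9 to 45.6, 44.2 and 48.3 CPM (log2 fold change -0.54 ± 0.07, adjusted p = 0.00018), and this fall was not called on the TPM scale. In contrast dnmt3a, for the enzyme that sets new methylation, went up from 370.4, 375 and 366 to 724, 647 and 656 CPM (log2 fold change 0.87 ± 0.06, adjusted p = 1.8e-06) after 845 ± 9.8 CPM (SD, n = 3) at NF62. The demethylation gene tet2 did not pass (log2 fold change -0.10 ± 0.06, adjusted p = 0.23), and gadd45g fell (log2 fold change -1.18 ± 0.16, adjusted p = 0.00015). The gene idh2, whose enzyme makes the co-substrate of TET enzymes in mitochondria, fell from 253, 270.2 and 264 to 129, 123 and 122 CPM (log2 fold change -1.08 ± 0.05, adjusted p = 1.1e-07).

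Every tested model of the cytosolic ribosome list fell. All 72 were called lower, with a median of -1.25, and 70 of them fell on the TPM scale. The list took 9.03% to 10.5% of all counts at NF50 and 3.93% to 5.24% at NF66. The gene rpl3 had 2765, 2473 and 2929 CPM at NF50 and 803, 896 and 747 CPM at NF66 (log2 fold change -1.74 ± 0.10, adjusted p = 4.0e-07). The gene rps19 had 1447, 1134 and 1549 CPM at NF50 and 434, 572 and 362 CPM at NF66 (log2 fold change -1.59 ± 0.20, adjusted p = 9.3e-05). Models that hold a second gene name make up 31 of the 72; the 41 others fell in all 41 cases.

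Mitochondrial respiration genes fell by less, and their direction depended on the scale. Of 48 models 26 fell and 2 rose, with a median of -0.24, but on the TPM scale 2 fell, 2 rose and the median was 0.09. The 3 largest falls were in models shared with ribosomal or splicing proteins, such as atp5a1/rpl17 (log2 fold change -1.06 ± 0.16, adjusted p = 0.00033) and atp5l/rps25 (log2 fold change -1.02 ± 0.10, adjusted p = 2.2e-05). Cholesterol synthesis genes fell in 9 of 16 models with no rise and a median of -0.38, and none was called on the TPM scale. In that list the median against NF50 was 0.18 at NF62, so the median fell between NF62 and NF66. The pathway gene mvd went from 39.6, 34.8 and 40.2 to 23.8, 19.3 and 20.9 CPM (log2 fold change -0.84 ± 0.10, adjusted p = 7.2e-05).

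Genes of the amino acid response fell together with slc7a5. Of 46 models of the stress list 26 fell and 4 rose, with a median of -0.66 (12 fell and 3 rose on the TPM scale). The asparagine synthetase gene asns had 42, 79.6 and 29.3 CPM at NF50 and 10.4, 10.2 and 10.7 CPM at NF66 (log2 fold change -2.27 ± 0.29, adjusted p = 0.0001). The cationic amino acid transporter gene slc7a3 had 117, 189.9 and 76.3 CPM at NF50 and 24.3, 25 and 26.1 CPM at NF66 (log2 fold change -2.35 ± 0.26, adjusted p = 3.6e-05). The glutathione-degrading enzyme gene chac1, a target of the transcription factor ATF4 in mammals, had 11.5, 22.1 and 0.782 CPM at NF50 and 0.508, 0.367 and 0.59 CPM at NF66 (log2 fold change -4.51 ± 0.95, adjusted p = 0.0033). In these genes NF50 replicate 3 was the highest library, and NF50 replicate 4 the lowest of its stage; in chac1 replicate 4 was close to the NF66 libraries. All NF50 libraries stayed above all NF66 libraries in each. Of those that rose, pdia4, a protein folding enzyme gene, went from 14.1, 20.2 and 14.5 to 50.2, 60.9 and 63.5 CPM (log2 fold change 1.84 ± 0.17, adjusted p = 1.3e-05).

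Matrix and guidance genes moved in both directions. Of 44 extracellular matrix models 12 rose and 17 fell (median 0.02). Of 50 axon guidance models 15 rose and 13 fell (median -0.07, and 0.26 on the TPM scale). The shares called in the matrix and guidance lists were 65.9% and 56%, beside 36.7% of all models. The collagen gene col14a1 had 27.9, 24.6 and 31 CPM at NF50 and 8.68, 9.17 and 7.79 CPM at NF66 (log2 fold change -1.70 ± 0.15, adjusted p = 6.8e-06), and col5a2 fell as well (log2 fold change -1.67 ± 0.14, adjusted p = 5.0e-06). Laminin genes moved in opposite directions: lamb1 fell from 8.69, 8.46 and 9.04 to 2.72, 2.36 and 4.1 CPM (log2 fold change -1.50 ± 0.23, adjusted p = 0.00044). Its relative lamb2 rose from 6.71, 5.85 and 8.6 to 17.8, 21.6 and 20.0 CPM (log2 fold change 1.49 ± 0.16, adjusted p = 3.6e-05). The gene mmp9, for a matrix protease, fell from 5.17, 3 and 4.99 to 0.462, 0.419 and 0.403 CPM (log2 fold change -3.34 ± 0.41, adjusted p = 9.0e-05).

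Among guidance genes the netrin gene ntn3 fell from 32.4, 27.1 and 27.5 to 12.6, 6.82 and 7.11 CPM (log2 fold change -1.71 ± 0.21, adjusted p = 9.7e-05). The netrin receptor gene unc5d rose from 86.1, 93.2 and 81 to 179, 206 and 258 CPM (log2 fold change 1.31 ± 0.14, adjusted p = 2.6e-05). The ephrin receptor gene epha2 fell at low counts (log2 fold change -1.34 ± 0.34, adjusted p = 0.0091), a call not made on the TPM scale. 

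Clock genes rose in 7 of 16 models and fell in 3 (median 0.17). The share called was 62.5%, beside 36.7% of all models. The PAR bZIP genes dbp and hlf and the repressor gene bhlhe40 led the list. The levels of dbp were 22, 28 and 22 CPM at NF50 and 51.6, 51.3 and 62.8 CPM at NF66 (log2 fold change 1.20 ± 0.13, adjusted p = 3.5e-05). Those of hlf were 16.1, 16 and 15.2 CPM at NF50 and 33.8, 31.6 and 39.6 CPM at NF66 (log2 fold change 1.15 ± 0.12, adjusted p = 3.3e-05). Those of bhlhe40 were 19.6, 12.2 and 16.1 CPM at NF50 and 35.9, 30.9 and 34.9 CPM at NF66 (log2 fold change 1.09 ± 0.19, adjusted p = 0.00098), and in all 3 genes the stages did not overlap. The core genes per1 (log2 fold change -0.15 ± 0.17, adjusted p = 0.54), per2 (log2 fold change -0.20 ± 0.12, adjusted p = 0.23) and arntl (log2 fold change -0.14 ± 0.12, adjusted p = 0.44) did not pass. Among other clock genes, clock (0.41 ± 0.10, adjusted p = 0.008), cry2 (0.31 ± 0.08, adjusted p = 0.0086), nr1d1 (0.93 ± 0.10, adjusted p = 4.5e-05) and nr1d2 (0.63 ± 0.09, adjusted p = 0.00025) rose. The gene cry1 fell (-0.38 ± 0.11, adjusted p = 0.016), as did the PAR bZIP gene tef (-0.20 ± 0.06, adjusted p = 0.023). The calls of clock, cry1 and tef were not made on the TPM scale, where tef was 0.13. Those of cry1 and tef were also lost without NF50 replicate 1 or NF66 replicate 1 or 3. The labels give a light cycle but no hour of dissection, and its part in these values was not tested.

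Genes of other cell types that such a dissection can carry also moved. Of 13 red blood cell models 8 fell and 0 rose (4 fell on the TPM scale). The list took 0.187% to 0.231% of counts at NF50 and 0.0592% to 0.0833% at NF66. The model hbd/hbg2, a beta-type globin, had 760.3, 653 and 941 CPM at NF50 and 99.8, 82.7 and 118 CPM at NF66 (log2 fold change -2.97 ± 0.17, adjusted p = 5.5e-07). The model hba3/hba4, of the alpha type, fell as well (log2 fold change -1.81 ± 0.25, adjusted p = 0.00022). The heme synthesis gene alas2 fell by less, from 24.5, 20.0 and 26.8 to 12.1, 7.08 and 11.9 CPM (log2 fold change -1.19 ± 0.20, adjusted p = 0.00086). Frogs exchange larval for adult globins at metamorphosis, and which globin a model measures is not settled by its name, and the part of blood content was not tested.

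Vessel and meningeal genes fell more often than they rose, though not on the TPM scale. Of 27 models 4 rose (14.8%, beside 17.9% of all models) and 11 fell (40.7%, beside 18.8%). The median was -0.43, and on the TPM scale 3 rose and 3 fell. The endothelial genes pecam1 (log2 fold change 0.76 ± 0.11, adjusted p = 0.00027) and slc2a1, the glucose transporter of brain endothelium (log2 fold change 0.73 ± 0.08, adjusted p = 3.4e-05), rose. The cadherin gene of endothelial junctions, cdh5, fell from 5.41, 5.26 and 4.84 to 2.59, 1.99 and 2.67 CPM (log2 fold change -1.09 ± 0.15, adjusted p = 0.00023). The contractile gene acta2 fell from 14.1, 15.6 and 19.4 to 7.02, 4.19 and 5.06 CPM (log2 fold change -1.59 ± 0.23, adjusted p = 0.00029). A model named c8g.2, which carries the RefSeq symbol ptgds, a lipocalin of meninges and choroid plexus, had 1072, 545 and 1310 CPM at NF50 and 123, 116 and 97 CPM at NF66 (log2 fold change -3.12 ± 0.51, adjusted p = 0.00064).

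The choroid plexus and ependyma list held 10 falls and 2 rises among 26 models (median -0.38, with 6 falls and 3 rises on the TPM scale). Thus 46.2% were called, beside 36.7% of all models. The roof plate gene msx1 fell from 5.61, 4.48 and 6.21 to 0.969, 0.839 and 1.06 CPM (log2 fold change -2.49 ± 0.33, adjusted p = 0.00014). The chloride channel gene clic6 fell from 19.1, 10.6 and 22.1 to 4.94, 5.09 and 4.44 CPM (log2 fold change -1.84 ± 0.33, adjusted p = 0.0011). The gene ttr, a choroid plexus marker in mammals, was below 0.1 CPM in every library of both stages. Whether it marks this tissue in the frog was not tested. Of 19 microglia and leukocyte models 3 rose and 4 fell (36.8% called, beside 36.7% of all models), with a median of 0.00. The antigen presentation gene cd74 had 17, 17.7 and 16.4 CPM at NF50 and 41.2, 33.5 and 26 CPM at NF66 (log2 fold change 0.97 ± 0.30, adjusted p = 0.024), a call that was lost without NF66 replicate 1 or any 1 NF50 library. The microglial receptor gene csf1r did not pass (log2 fold change -0.16 ± 0.11, adjusted p = 0.3).

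Eye and muscle genes served as a check of other tissue. Of 24 retina and pineal models 6 fell and 0 rose (median -0.45; 3 falls on the TPM scale). Thus 25.0% were called, beside 36.7% of all models called and 18.8% lower. The largest fall was in the pigment gene tyrp1, with 2.58, 1.64 and 3.23 CPM at NF50 and 0.0923, 0.0524 and 0.0931 CPM at NF66 (log2 fold change -4.83 ± 0.42, adjusted p = 8.2e-06). Rhodopsin was below 0.1 CPM in every library. Of 23 skeletal muscle models 6 rose and 9 fell, with a median of -0.08 that became 0.11 on the TPM scale. The calcium pump gene of fast fibers, atp2a1, fell from 1.64, 1.4 and 1.91 to 0.138, 0.0524 and 0.0931 CPM (log2 fold change -4.03 ± 0.35, adjusted p = 7.2e-06). The calcium release channel gene ryr1 rose from 9.24, 8.26 and 9.48 to 27.4, 32.7 and 29 CPM (log2 fold change 1.72 ± 0.11, adjusted p = 1.1e-06), and mef2c, which neurons also express, from 29.5, 28.6 and 28.2 to 50.6, 83.4 and 84.6 CPM (log2 fold change 1.34 ± 0.16, adjusted p = 8.4e-05). The part of eye pigment, muscle or meninges left on the tissue in any result above was not tested.

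The largest single changes included genes outside these lists. The largest fall with measurable counts at both stages was in pla2g2e, a secreted phospholipase A2 gene, with 102, 58.9 and 122 CPM at NF50 and 0.785, 0.629 and 0.838 CPM at NF66 (log2 fold change -6.94 ± 0.40, adjusted p = 5.2e-07). It ran through 25.2 ± 9.75 CPM at NF56 and 1.75 ± 0.295 CPM at NF62 (SD, n = 3 each). The receptor gene eda2r had 5.91, 17.1 and 4.94 CPM at NF50 and 0.185, 0.157 and 0.341 CPM at NF66 (log2 fold change -5.25 ± 0.58, adjusted p = 4.0e-05), with NF50 replicate 3 the highest. Among rises, ednrb2, an endothelin receptor gene, had 1.79, 1.48 and 1.12 CPM at NF50 and 5.96, 6.08 and 16.9 CPM at NF66 (log2 fold change 2.73 ± 0.76, adjusted p = 0.015). Its call was lost without NF50 replicate 3 or 4 or NF66 replicate 3. The clusterin gene clu rose from 4.37, 5.11 and 2.1 to 19.2, 10.8 and 34 CPM (log2 fold change 2.46 ± 0.49, adjusted p = 0.0023).

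Among the largest named changes, 2 models had no reads at all in any library of a stage. One cadm4 model, for a cell adhesion protein, had 17.2, 56.7 and 13.5 CPM at NF50 and 0 counts in every NF66 library, which is at least 709-fold lower when the floor of 3 counts is taken over the group. A second model with the name cadm4 was present throughout and rose from 416, 365 and 410.3 CPM to 861, 882 and 788 CPM (log2 fold change 1.09 ± 0.07). One tmed2 model, for a protein of vesicle transport, had 0 counts in every NF50 library and 19.5, 10.8 and 14.7 CPM at NF66, at least 331-fold higher by the same floor. A second model named eif2s3/tmed2 fell from 356, 357 and 362 CPM to 202, 258 and 212 CPM (log2 fold change -0.68 ± 0.09). With other models of the same name moving the opposite way, neither single model gives the direction of its gene, and how reads were divided between them was not tested.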

How the data were processed

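Total RNA was sequenced from 12 libraries, 3 at each of 4 stages. The values compared were RSEM expected counts per gene model, deposited as a matrix of the authors, and the TPM values they deposited per library, per the file headers. Tools listed in the submitters' processing notes are RSEM, Bowtie, cutadapt, DESeq2 and CASAVA 1.8.2. No source used here names the genome build, and no coordinates or sequences are printed. Of the expected counts 53.7% were not whole, and they were rounded. Each of 33875 models entered once; 13268 carried a gene name and 400 carried more than 1 name, written with a slash.

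Models with at least 10 counts in enough libraries and 15 in all were kept (19584 models, 99.93% of counts). The log2 fold change of NF66 against NF50 and its standard error came from edgeR 4.0.16 (quasi-likelihood test, R 4.3.3) fitted to all 12 libraries with TMM scaling, 1 mean per stage and Benjamini-Hochberg adjustment over all 19584 models; every p printed with a fold change is from this test, and every ± after a fold change is a standard error. The test was checked on simulated data. Alternatives were RLE factors, no scaling factor, other filters, only the 6 libraries, a block, DESeq2 1.42.0, limma 3.58.1 on log2(TPM + 1) with no scaling between libraries, each library left out in turn and, chosen after seeing the data, models with more than 1 name left out. The biological coefficient of variation was 18.3%; totals per library ran from 12046529 to 31029733, and depth limits the precision of genes near or below 1 CPM.

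The members and the 30 gene lists were chosen with earlier results of these data known; 1095 of 1332 listed symbols matched a model. Genes are named where they are key genes of a list, are among the 3 largest called changes of a list or the 12 largest in a direction, have 1 of the 6 lowest p in a direction, or are members of a list described in turn; others are said to be chosen after their values were seen. Some genes that meet this rule are not reported here. RefSeq symbols (assembly UCB_Xtro_10.0) were used only for names.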

Additional observations from a re-analysis of the deposited data

How the results depend on the processing

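Against 3507 models higher and 3689 lower, comparing TPM values with no scaling between libraries gave 3597 higher and 969 lower, and 481 in place of 1193 lower by at least 2-fold; that scale moved the median of all models to 0.29. Leaving out 1 library at a time gave 2819 to 3253 models higher and 3074 to 3568 lower, and 658 to 760 higher and 1128 to 1256 lower by at least 2-fold. All other counts stayed within 1.5 times: DESeq2 called 3720 higher and 3766 lower, and a fit of only the 6 libraries 2933 and 3248. The stages share replicate numbers 1 and 3, and the labels do not say that a number pairs libraries. The correlations of the deviations from the stage means were 0.04 for replicate 1 and 0.552 for replicate 3. Pairs of unlike number ran from -0.533 to 0.417. Whether libraries of the same number share a batch was not tested. With the number as a replicate block 4279 models were higher and 4417 lower. The next counts leave out clock, cry1, cry2, nr1d1, nr1d2, tef, cspg4 and nkx2-2. Of the 153 other genes named in the text and past the threshold, 23 lost the call in at least 1 alternative, 16 of them on the TPM scale and 8 without 1 library. Beside those 16, mapt changed sign on the TPM scale (0.12), the only gene of the 153 that did so under any alternative. On that scale 15 genes that were not called changed sign: tet2 (0.21), grin2a (0.22), hmga2 (0.08), csf1r (0.16), arntl (0.19), cacna1a (0.14), fos (0.19), lhx9 (0.27), nkx2-1 (0.05), otp (0.19), per1 (0.18), per2 (0.11), slc1a3 (0.33), sox9 (0.09) and tcf7l2 (0.17). Without a scaling factor fos was 0.03 and slc1a3 0.05; slc1a3 was 0.01 with the replicate block and 0.00 with RLE factors and DESeq2. Leaving out 1 library changed the sign of grin2a (-0.31 to 0.17), hmga2 (-0.39 to 0.30), fos (-0.59 to 0.47), lhx9 (-0.11 to 0.04), olig2 (-0.08 to 0.88), otp (-0.38 to 0.04), prl (-0.38 to 0.37), slc1a3 (-0.05 to 0.06) and the thra model (-0.03 to 0.65), none of them called. The medians of axon guidance, DNA methylation, oxidative phosphorylation and skeletal muscle changed sign on the TPM scale; the cause was not tested.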

Other observations

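Immediate early genes, which neurons switch on within minutes of stimulation or handling, were not called between the stages but varied among the libraries of both stages. The gene fos had 88.1, 33.9 and 41.9 CPM at NF50 and 51.3, 21.2 and 84.6 CPM at NF66 (log2 fold change -0.05 ± 0.60, adjusted p = 0.96), egr1 had 152, 80.2 and 69.2 CPM at NF50 and 144, 77.5 and 244 CPM at NF66 (log2 fold change 0.63 ± 0.49, adjusted p = 0.35), and junb had 49.2, 27.3 and 28.4 CPM at NF50 and 43.7, 28.6 and 85.5 CPM at NF66 (log2 fold change 0.60 ± 0.43, adjusted p = 0.32). NF50 replicate 1 and NF66 replicate 3 were the highest of their stages in each of these genes. Some receptor genes had large fold changes that did not pass the threshold, among them the androgen receptor gene ar, with 0.0993, 0.507 and 0.587 CPM at NF50 and 0.646, 0.996 and 1.27 CPM at NF66 (log2 fold change 1.27 ± 0.60, adjusted p = 0.13), and the neuropeptide Y receptor gene npy2r, with 0.0993, 0.195 and 0.0978 CPM at NF50 and 0.462, 0.262 and 0.776 CPM at NF66 (log2 fold change 1.90 ± 0.71, adjusted p = 0.057).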
